A study of Mus musculus with 36 samples.

Results

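Imprinted genes expressed in brain were described here in mice given inhibitors of histone deacetylases (HDACs). The set held 7 genes, Peg3, Ndn, Snrpn, Meg3, Nnat, Impact and Nap1l5, chosen by name with earlier results of these data known. Each was found by its gene symbol on the array. Of the 7 genes, 6 had a probe, with 14 probes among the 45281 on the array, which carry 30869 gene symbols. No probe carried the symbol Snrpn, so its level is not given, and the 3 probes of Snurf, which is read from the same transcript, are reported in its place and under their own name. All 36 arrays measured all 14 probes.

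The arrays were Illumina MouseWG-6 BeadChips hybridized with total RNA of male mice that were 11 weeks old. The labels give the strain as C57BL/6J, while the methods give C57BL/6 from more than 1 supplier. The hippocampus (HIP), the nucleus accumbens (NAc) and the medial prefrontal cortex (PFC) were dissected 1 hour after the last of 10 daily intraperitoneal injections. Each array held the RNA of a pool of 2 mice, and 3 pools, 6 mice, made up each treatment, so the same 12 pools were measured in each region. The HDAC inhibitors were compared with vehicle (10% DMSO, 45% PEG-400 and 45% saline). Cpd-60, a slow-binding benzamide selective for HDAC1 and HDAC2, was given at 45 mg/kg. SAHA, a hydroxamic acid that inhibits more family members, was given at 25 mg/kg, and CI-994, a benzamide, at 10 mg/kg. Vehicle and Cpd-60 were injected at 7.5 mL/kg and SAHA and CI-994 at 5 mL/kg, so in the comparisons of SAHA and CI-994 with vehicle the drug and the injected volume cannot be told apart. Since the doses differed, values of the drugs stand side by side and the drugs were not compared with each other. The mice were not genetically modified, and the labels name no allele or transgene. For the second Cpd-60 pool, the titles name mice 3 and 4 and a second label field repeats mice 1 and 2, and the title was followed.

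Imprinted genes are read mainly from a single parental copy, because CpG methylation laid down in the egg or the sperm marks the other. Many of them are strongly expressed in brain, where they act in growth, feeding, maternal care and the survival of neurons. HDAC inhibitors raise the acetylation of histones, which is another chromatin mark than the CpG methylation that carries an imprint. Meg3, a long noncoding RNA, is read from the maternal copy. Peg3, a zinc finger protein, Ndn (necdin), a MAGE-family protein of postmitotic neurons, and Snrpn, a component of spliceosomal particles, are read from the paternal copy. So are Nnat (neuronatin), a small proteolipid of the endoplasmic reticulum, Impact, which restrains the GCN2 arm of translational control, and Nap1l5, a relative of nucleosome assembly proteins. The array does not tell the parental copies apart, so a level is the sum of both.

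The promoter entries of RefSeq (build GRCm38.p6) show what these starts share. Of the 7 genes, 6 had at least 1 entry and Impact had none. Windows of 300 bases around the start held 13 CpG in Peg3, 11 in Ndn, 13 at the first Meg3 start, 17 in Nnat and 17 in Nap1l5, against a median of 7 over 32851 mouse promoters. As many CpG or more stood in 31.41% of all promoters for Nnat and Nap1l5, in 37.91% for Peg3 and the first Meg3 start and in 41.38% for Ndn. The 4 Snrpn entries held 2, 3, 4 and 7 CpG, and a second Meg3 entry held 1. The 250 bases before the start are printed for 2 pairs of genes that shared an 8-letter word, with every CpG in capitals. Peg3 (chr7:6730420-6730669, minus strand) and Meg3 (chr12:109540746-109540995, plus strand) both hold TGACGTCA, the cyclic AMP response element, 178 and 57 bases before the start.
Peg3: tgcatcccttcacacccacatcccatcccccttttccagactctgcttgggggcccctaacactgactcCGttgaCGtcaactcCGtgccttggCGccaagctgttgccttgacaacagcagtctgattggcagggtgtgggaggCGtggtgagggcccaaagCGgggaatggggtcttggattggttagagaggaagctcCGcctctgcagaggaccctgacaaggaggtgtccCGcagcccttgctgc
Meg3: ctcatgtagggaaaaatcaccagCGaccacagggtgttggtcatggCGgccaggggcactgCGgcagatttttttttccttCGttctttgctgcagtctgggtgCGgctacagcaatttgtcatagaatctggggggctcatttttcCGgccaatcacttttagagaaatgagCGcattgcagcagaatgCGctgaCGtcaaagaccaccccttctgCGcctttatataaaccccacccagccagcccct
Nnat (chr2:157559828-157560077, plus strand) and Ndn (chr7:62348027-62348276, plus strand) both hold CGCATGCG, the core of the NRF1 motif, 25 and 23 bases before the start.
Nnat: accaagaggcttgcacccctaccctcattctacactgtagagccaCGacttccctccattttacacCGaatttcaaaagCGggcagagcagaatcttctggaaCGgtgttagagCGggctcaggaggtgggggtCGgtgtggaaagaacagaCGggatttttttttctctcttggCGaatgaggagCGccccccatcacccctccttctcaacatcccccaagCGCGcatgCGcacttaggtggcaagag
Ndn: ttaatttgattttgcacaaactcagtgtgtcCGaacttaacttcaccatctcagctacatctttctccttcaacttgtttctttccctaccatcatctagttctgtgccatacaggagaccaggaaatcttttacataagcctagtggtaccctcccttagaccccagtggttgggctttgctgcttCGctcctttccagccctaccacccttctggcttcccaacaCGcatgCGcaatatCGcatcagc
Among all 32851 promoter windows, TGACGTCA stood in 1.79% and CGCATGCG in 1.872%, and both words read the same on either strand. CGCATGCG also stood in each of the 4 Snrpn windows, which are starts of a single gene, and it was looked for after these sequences had been read. The TATA box TATAAA, present on either strand in 13.62% of windows, was found at the first Meg3 start, in 1 Snrpn window and in Nap1l5. The YY1 word GCCATNTT, in 6.052% of windows, was in none of the 10 entries of these genes. Matches of different words did not overlap, while the 2 TATAAA matches at the first Meg3 start, on opposite strands, shared bases. A match is a description of letters and says nothing of binding in these brains.

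Levels are log2 values of quantile-normalized intensity, and levels of different probes cannot be set against each other. Each gene is given by its brightest tested probe, which had a detection p of at most 0.01 on 36 of 36 arrays for all 6 genes. The median raw intensity of an array lay between 82.2 and 108.3, and 31.9% to 43.3% of probes were detected at that threshold. Dissections were checked with marker genes in the vehicle pools. All 12 striatal markers tested were higher in NAc than in PFC and than in HIP, 6 of 8 cortical markers were lower in NAc and in HIP than in PFC, and 8 of 10 hippocampal markers were higher in HIP than in either. Sums of 8 septal and hypothalamic markers were 786 to 811 in PFC, 966 to 1223 in NAc and 884 to 917 in HIP. These sums of normalized intensity were thus highest in NAc, and the part of such tissue in NAc levels was not tested. Each region was run on its own pair of BeadChips with 6 arrays each, so region and BeadChip cannot be told apart. In these bulk samples, fewer cells of a type and less RNA per cell cannot be told apart either.

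Regions were compared within the 3 vehicle pools by limma with the pool as a block and Benjamini-Hochberg adjustment over 22606 probes. Of the 6 genes measured, 2 passed an adjusted p of 0.05 between NAc and PFC, where 19.3% of all probes did. Between HIP and PFC 3 of 6 passed, against 24.3% of all probes, and between HIP and NAc 3 of 6, against 16.2%. The median difference over the 6 genes was 0.48 from PFC to NAc, −0.00 from PFC to HIP and −0.30 from NAc to HIP on the log2 scale, where all probes had medians of −0.00, −0.03 and −0.00. The median size of the difference, whatever its sign, was 0.48, 0.86 and 0.48 for the 6 genes and 0.12, 0.14 and 0.12 for all probes. The 6 genes are given by their brightest probes, while all probes include dim ones near background, whose differences are compressed. Neither these sizes nor the shares that passed are matched for brightness. The 9 pools given a drug are other mice, and the same contrasts were fitted on them alone after the vehicle values had been seen. There, 4 of 6 genes passed between NAc and PFC (37.1% of 25888 probes did), 5 of 6 between HIP and PFC (41.7%) and 3 of 6 between HIP and NAc (27.7%).

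**Figure D1:**
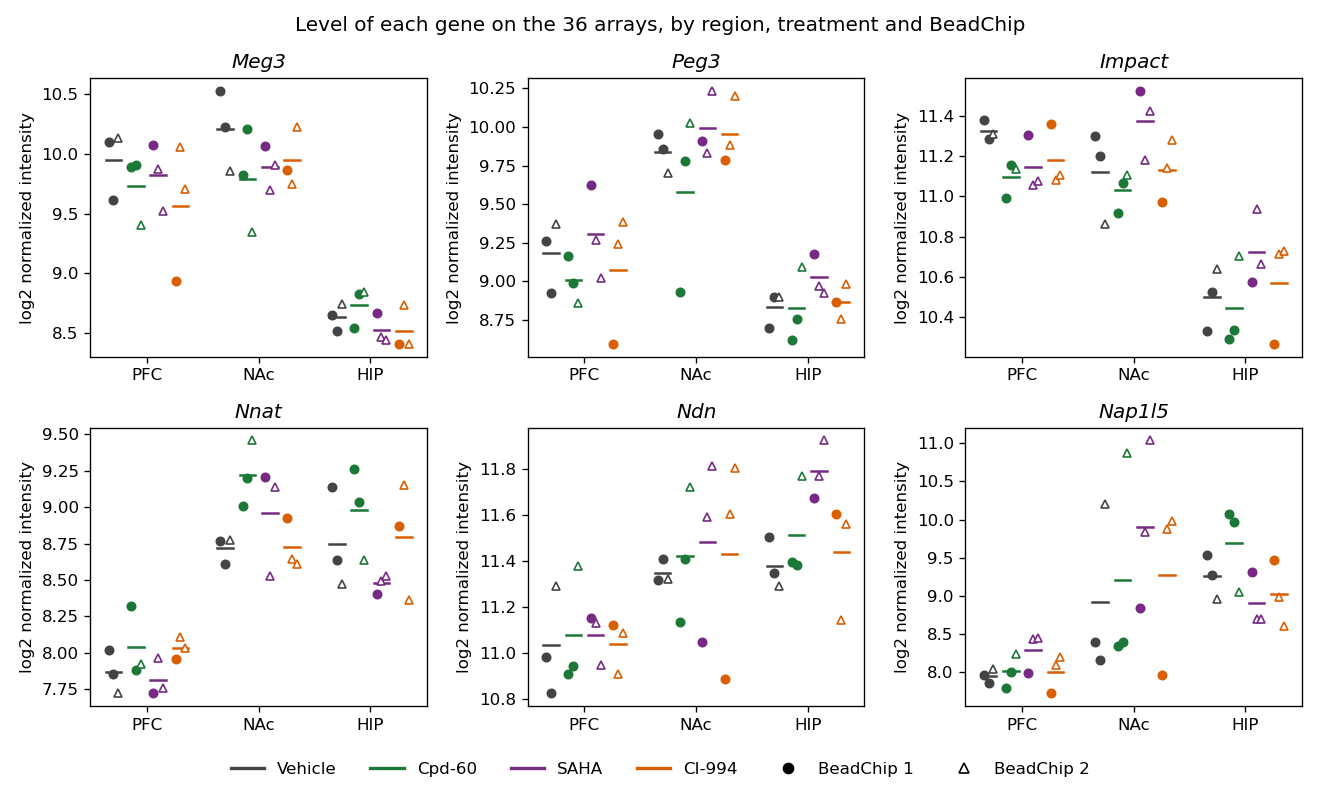
Log2 normalized intensity of each gene's brightest probe (y axis, scaled per gene) on all 36 arrays by region (x axis), with colour for treatment, circles for the first and triangles for the second BeadChip of a region, and bars for the mean of 3 pools. HIP arrays of Meg3 lie between 8.41 and 8.84, below every PFC and NAc array, and Nap1l5 in NAc splits by BeadChip.

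In the vehicle pools, Meg3 had the widest difference between regions of the 6 genes. Its level in the vehicle pools was 10.10, 9.62 and 10.14 in PFC, 10.53, 10.23 and 9.86 in NAc, and 8.65, 8.52 and 8.74 in HIP. All 3 HIP arrays lay below all PFC and NAc arrays, while PFC and NAc overlapped. Meg3 fell by 1.57 ± 0.16 (SE, 3 pools) on the log2 scale from NAc to HIP, a change of −66.3% (limma adjusted p = 0.000521), and 0.761% of probes differed as much. From PFC to HIP it fell by 1.32 ± 0.16 (adjusted p = 0.00144), and NAc differed from PFC by 0.25 ± 0.16 (adjusted p = 0.33). The order of the means was NAc 10.21 ± 0.33 (SD, n = 3), PFC 9.95 ± 0.29 and HIP 8.64 ± 0.11, and the first pair did not differ beyond its spread. HIP was below NAc in 12 of 12 pools and below PFC in 12 of 12, while NAc was above PFC in 6 of 12. In the 9 drug pools the differences were −1.28 ± 0.11 and −1.11 ± 0.11 (adjusted p = 1.79e-08 and 1.84e-07). Across all 36 arrays, region accounted for 82.6% of the variance of Meg3, against a median of 26.2% over 26594 probes, dim ones included.

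Other probes of the Meg3 locus were not all alike. A dimmer Meg3 probe was at 7.42, 7.36 and 8.06 in PFC, 8.34, 8.16 and 9.38 in NAc and 7.88, 7.99 and 7.91 in HIP. By that probe NAc was higher than PFC by 1.01 ± 0.21 (adjusted p = 0.012), HIP differed from PFC by 0.31 ± 0.21 (adjusted p = 0.313), and HIP from NAc by −0.70 ± 0.21 (adjusted p = 0.0581). Its sign between HIP and PFC was thus opposite to that of the brighter probe, though it missed the threshold, and its NAc values split by BeadChip, as given further on. The third Meg3 probe passed the detection threshold of 0.01 on 0 arrays and was not tested between regions. Probes of the array also carry the older symbol of this gene, Gtl2. The brighter of 2 such probes fell by 1.38 ± 0.07 from NAc to HIP (adjusted p = 1.25e-05) and by 1.06 ± 0.07 from PFC to HIP (adjusted p = 0.000123), and the other fell by 1.03 ± 0.09 from NAc to HIP (adjusted p = 0.000174). From PFC to HIP the dimmer Gtl2 probe differed by −0.26 ± 0.09 (adjusted p = 0.068). So 4 probes of the locus were lower in HIP than in NAc, 3 of them past the threshold, and they differed in sign between HIP and PFC. Which transcripts each probe reads is not given in the sources used here.

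Peg3 was highest in NAc. Its level was 9.26, 8.93 and 9.37 in PFC, 9.95, 9.86 and 9.70 in NAc, and 8.70, 8.90 and 8.90 in HIP of the vehicle pools. The 3 regions did not overlap, with HIP lowest. From NAc to HIP Peg3 fell by 1.00 ± 0.13 (adjusted p = 0.00134), a change of −50.2%, and NAc was above PFC by 0.65 ± 0.13 (adjusted p = 0.00957), an increase of 57.0%. HIP differed from PFC by −0.35 ± 0.13, which missed the threshold (adjusted p = 0.0785), so the order of the means was NAc 9.84 ± 0.13 (SD, n = 3), PFC 9.19 ± 0.23 and HIP 8.83 ± 0.12, with the last pair unseparated by the test. Its other 2 probes were also lower in HIP than in NAc, with log2 differences of −0.79 ± 0.07 (adjusted p = 0.000298) and −0.38 ± 0.09 (adjusted p = 0.0204). By these 2 probes HIP was also below PFC in 12 of 12 pools, and by the brightest in 10 of 12. In the drug pools HIP minus PFC was −0.48 ± 0.12 and −0.27 ± 0.06 by these 2 (limma adjusted p = 0.0034 and 0.00115). The brightest probe gave −0.22 ± 0.11 there (adjusted p = 0.125). By the brightest probe HIP was below NAc in 12 of 12 pools, and NAc above PFC in 11 of 12. In the drug pools the differences were −0.94 ± 0.11 from NAc to HIP (adjusted p = 1.62e-06) and 0.71 ± 0.11 from PFC to NAc (adjusted p = 3.93e-05). The exception was the first Cpd-60 pool, whose NAc array gave 8.93 beside 9.16 in PFC, and that NAc array had the smallest share of detected probes of all 36, 31.9%.

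Impact was lower in HIP than in both other regions. The vehicle pools gave 11.38, 11.28 and 11.31 in PFC, 11.30, 11.20 and 10.86 in NAc and 10.33, 10.52 and 10.64 in HIP, and the HIP arrays overlapped neither other region. Impact fell by 0.83 ± 0.13 from PFC to HIP (adjusted p = 0.00327), a change of −43.6%, and by 0.62 ± 0.13 from NAc to HIP (adjusted p = 0.0131), a change of −35.1%. NAc differed from PFC by −0.20 ± 0.13 (adjusted p = 0.313). The means were 11.33 ± 0.05 (SD, n = 3) in PFC, 11.12 ± 0.23 in NAc and 10.50 ± 0.16 in HIP, and PFC and NAc did not differ beyond their spread. The second Impact probe also fell, by 0.55 ± 0.15 from PFC to HIP (adjusted p = 0.032) and by 0.65 ± 0.15 from NAc to HIP (adjusted p = 0.0233). HIP was the lowest region in 12 of 12 pools against either other region. In the drug pools the differences were −0.56 ± 0.08 against PFC (adjusted p = 7.23e-06) and −0.60 ± 0.08 against NAc (adjusted p = 3.53e-06).

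Nnat was lowest in PFC. Its level was 8.02, 7.85 and 7.72 in PFC, 8.77, 8.61 and 8.78 in NAc and 9.14, 8.64 and 8.47 in HIP. Every PFC array lay below every NAc and HIP array, and NAc and HIP overlapped. NAc was above PFC by 0.86 ± 0.12 (adjusted p = 0.00189), an increase of 80.9%, and HIP above PFC by 0.88 ± 0.12 (adjusted p = 0.00184), an increase of 84.6%. HIP and NAc differed by 0.03 ± 0.12 (adjusted p = 0.895), with means of 8.75 ± 0.34 (SD, n = 3) in HIP, 8.72 ± 0.09 in NAc and 7.86 ± 0.15 in PFC. PFC was the lower region in 12 of 12 pools in both contrasts, and the drug pools gave 1.01 ± 0.12 for NAc (adjusted p = 1.1e-06) and 0.79 ± 0.12 for HIP (adjusted p = 2.32e-05). Its dimmer probes did not all give this order. In the drug pools a dimmer Nnat probe gave 0.62 ± 0.08 for NAc and 0.55 ± 0.08 for HIP (limma adjusted p = 6.26e-06 and 2.66e-05). This dimmer probe also differed between BeadChips, as given further on. Another gave 0.68 ± 0.08 for NAc (adjusted p = 1.19e-06) but 0.12 ± 0.08 for HIP (adjusted p = 0.252). By that probe HIP minus NAc was negative in 12 of 12 pools and was −0.56 ± 0.08 in the drug pools (adjusted p = 1.74e-05).

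Ndn varied less between regions. It was at 10.98, 10.83 and 11.29 in PFC, 11.32, 11.41 and 11.32 in NAc and 11.50, 11.35 and 11.29 in HIP. NAc lay above PFC on all arrays, HIP overlapped PFC at a single shared value, and neither difference passed in the vehicle pools, at 0.32 ± 0.12 (adjusted p = 0.102) and 0.35 ± 0.12 (adjusted p = 0.0659). Means were 11.03 ± 0.24 (SD, n = 3) in PFC, 11.35 ± 0.05 in NAc and 11.38 ± 0.11 in HIP, and HIP and NAc differed by 0.03 ± 0.12 (adjusted p = 0.889). In the 9 drug pools Ndn was above PFC by 0.38 ± 0.10 in NAc (adjusted p = 0.00495) and by 0.51 ± 0.10 in HIP (adjusted p = 0.000331). Over all 12 pools NAc exceeded PFC in 10, and HIP exceeded PFC in 11 and equalled it in 1.

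For the Snrpn locus, the 3 Snurf probes gave no single order. The brightest was at 12.79, 12.96 and 12.78 in PFC, 12.55, 12.42 and 12.36 in NAc and 12.65, 12.59 and 12.69 in HIP. NAc was below PFC on all arrays, with a log2 difference of −0.40 ± 0.08 (adjusted p = 0.0119), and HIP lay between them. A dimmer Snurf probe fell by 0.74 ± 0.09 from PFC to NAc (adjusted p = 0.00107) and by 0.35 ± 0.09 from PFC to HIP (adjusted p = 0.0267). The remaining Snurf probe was higher in HIP than in PFC by 0.55 ± 0.12 (adjusted p = 0.0146). HIP was above NAc in 12, 12 and 11 of 12 pools by these probes. Ndn lies in the same imprinted cluster on chromosome 7, and its own differences between HIP and NAc were given above.

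**Figure D2:**
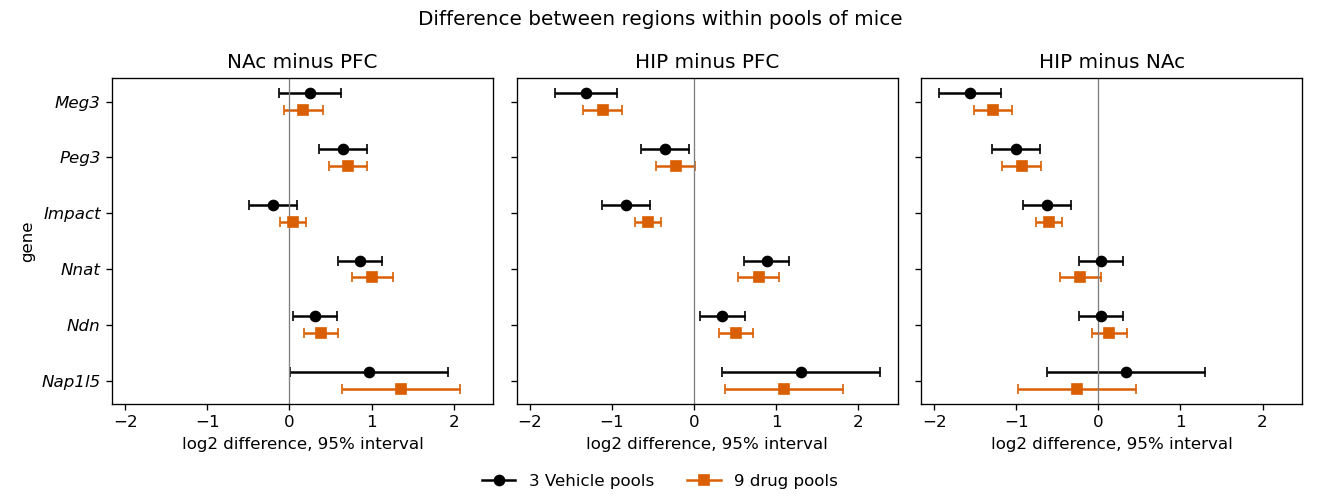
Log2 difference between regions within pools (x axis, bars 95% interval) for each gene (y axis), fitted on the 3 vehicle pools (black circles) and on the 9 drug pools (orange squares). Meg3, Peg3 and Impact lie below 0 for HIP minus NAc in both fits, and Nnat lies above 0 for NAc and HIP against PFC.

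Nap1l5 did not keep a stable order of regions, and its NAc level split by BeadChip. The vehicle pools gave 7.96, 7.86 and 8.05 in PFC, 8.40, 8.17 and 10.20 in NAc and 9.54, 9.27 and 8.96 in HIP, and the NAc array at 10.20 was the only vehicle NAc array on the second BeadChip. PFC lay below all NAc and HIP arrays, NAc and HIP overlapped, and no contrast passed in the vehicle pools, with 0.97 ± 0.42 for NAc and 1.30 ± 0.42 for HIP against PFC (adjusted p = 0.155 and 0.0562). Over all treatments, the 6 NAc arrays of the first BeadChip ran from 7.97 to 8.84 and the 6 of the second from 9.83 to 11.04, with no overlap. In a fit with treatment and BeadChip as terms, the second NAc BeadChip was higher by 1.99 ± 0.19 (adjusted p = 2.36e-05), and 0.0344% of 23242 probes differed as much between these BeadChips. In HIP the order was turned, with 9.27 to 10.07 on the first and 8.60 to 9.05 on the second BeadChip, a difference of −0.67 ± 0.09 (adjusted p = 0.00562). In PFC the difference was 0.34 ± 0.06 (adjusted p = 0.0753). The same 6 pools sat on the second BeadChip in every region, so pool and BeadChip cannot be told apart. HIP minus NAc was positive in 6 of 6 pools of the first BeadChips, from 0.47 to 1.72, and negative in 6 of 6 pools of the second, from −2.33 to −0.88. PFC was below both other regions in 12 of 12 pools, by at least 0.24 against NAc and by at least 0.25 against HIP, and in the drug pools these differences passed at 1.36 ± 0.34 and 1.10 ± 0.34 (adjusted p = 0.00374 and 0.0139).

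**Figure D3:**
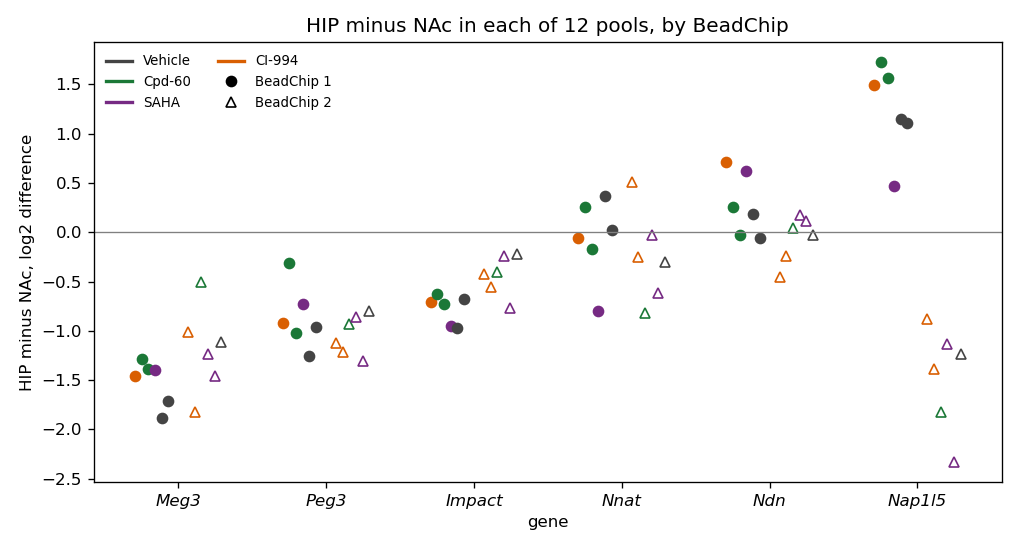
HIP minus NAc as a log2 difference (y axis) in each of the 12 pools for each gene (x axis), with colour for treatment, circles for pools on the first BeadChips and triangles for those on the second. Meg3, Peg3 and Impact lie below 0 in all 12 pools, and Nap1l5 is above 0 in the 6 pools of the first and below 0 in the 6 of the second BeadChips.

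By their brightest probes, the other genes moved less between BeadChips. In NAc, 22.9% of probes passed an adjusted p of 0.05 between the BeadChips, and of the 6 genes Nap1l5 and Ndn did, Ndn by 0.47 ± 0.12 (adjusted p = 0.0141). In HIP 1.19% of probes passed, Impact with 0.32 ± 0.06 (adjusted p = 0.038) and Nap1l5 among them, and in PFC 0.144% passed and 0 of the 6 genes. The dimmer Meg3 probe resembled Nap1l5 in NAc, with 7.77 to 8.34 on the first and 8.78 to 9.50 on the second BeadChip, a difference of 1.29 ± 0.11 (adjusted p = 1.19e-05), and with −0.20 ± 0.07 in HIP (adjusted p = 0.233). The brighter Meg3 probe differed by −0.33 ± 0.13 in NAc (adjusted p = 0.105). A dimmer Nnat probe differed by 0.32 ± 0.09 in NAc and −0.32 ± 0.06 in HIP (limma adjusted p = 0.0292 and 0.0412). Its HIP minus NAc was positive in 6 of 6 pools of the first BeadChips and negative in 5 of 6 of the second. No other Nnat probe passed between BeadChips. In NAc the dimmer Snurf probes differed by 0.47 ± 0.12 and −0.32 ± 0.06 (limma adjusted p = 0.0146 and 0.00438), and the brightest did not pass. All of these are differences between BeadChips of the same region. A difference between BeadChips of different regions cannot be told apart from region.

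Leaving out a vehicle pool changed several of these calls. Without the third vehicle pool, the one on the second BeadChips, Ndn, Meg3 and Nap1l5 also passed between NAc and PFC, with Nap1l5 at 0.37 in place of 0.97, and Nap1l5 passed between HIP and NAc at 1.12. Without the second pool, 0 of 6 genes passed between NAc and PFC, 1 of 6 between HIP and PFC and 2 of 6 between HIP and NAc, and without the first pool Peg3 between NAc and PFC and Impact between HIP and NAc no longer passed. The fall of Peg3 from NAc to HIP passed in every alternative fit, between −1.14 and −0.79. The share of all probes that passed was not counted in these fits. Whether these genes changed more than other probes is therefore not known.

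Genes that vary like each member over the 36 arrays were sought by Pearson correlation, which follows region and BeadChip as much as any other source of variance. Meg3 was most like Syne1 (r = 0.958), a large protein of the nuclear envelope, and Prkacb (r = 0.924), a catalytic subunit of protein kinase A. Ndn was most like 2310040A07Rik (r = 0.912) and Keap1 (r = 0.907), the sensor of oxidative stress. Peg3 was closest to LOC100046259 and to Mdga2 (both r = 0.884), Nnat to Rarres2 (r = 0.88) and Dock10 (r = 0.878), and Impact to Atg16l2 (r = 0.875) and Vezf1 (r = 0.872). Nap1l5 was most like mt-Nd4l (r = 0.961) and mtDNA_ND4L (r = 0.95), probes of a subunit of mitochondrial complex I. The mtDNA_ND4L probe also differed between BeadChips, by 2.93 ± 0.09 in NAc and −1.01 ± 0.09 in HIP (adjusted p = 1.41e-08 and 0.000626), in the same directions as Nap1l5.

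Markers of cell types also differed between regions, and their part in the differences above was not tested. Of 9 oligodendrocyte markers, 7 were higher in NAc and 8 in HIP than in PFC, and 6 were higher in HIP than in NAc. Their summed normalized intensity was 9420 to 11459 in PFC, 16346 to 21206 in NAc and 26280 to 29321 in HIP of the vehicle pools. Of 7 neuronal markers, 3 were lower in NAc than in PFC, and in HIP 3 were lower and 1 higher than in PFC, with sums of 23594 to 26222 in PFC, 14559 to 18200 in NAc and 17589 to 17662 in HIP. Of 10 astrocyte markers, 1 was higher and 5 were lower in NAc than in PFC, 3 were higher and 1 lower in HIP than in PFC, and 5 were higher and 1 lower in HIP than in NAc. The 10 astrocyte markers summed to 15168 to 15954 in PFC, 14645 to 15126.5 in NAc and 17162 to 18724.5 in HIP, so Peg3, highest in NAc and lowest in HIP, had the opposite direction. Of the choroid plexus and ependymal markers, 5 of 8 were higher in HIP than in PFC. The 8 choroid plexus and ependymal markers summed to 870 to 1342 in PFC, 1114 to 1258 in NAc and 3247 to 11454 in HIP. Nnat, higher in NAc and HIP than in PFC, had the direction of the oligodendrocyte sum there, and Meg3 and Impact, lower in HIP than in the other regions, had the opposite one. The neuronal sum was highest in PFC, where Nnat was lowest. Not every gene is set beside every sum.

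Against vehicle, each drug was tested within each region by limma over the 12 arrays of that region. No probe of the array passed an adjusted p of 0.05 in any of the 9 comparisons, so 0 of 6 genes did, and the smallest adjusted p of any member was 0.502. At an unadjusted p of 0.05, 4 of 54 values passed. With Cpd-60 these were Impact in PFC and Nnat in NAc and none in HIP, where 5.19%, 4.77% and 5.26% of all probes passed. With SAHA they were Nap1l5 in PFC, none in NAc and Ndn in HIP, where 2.25%, 2.05% and 9.37% passed. With CI-994 there were none, where 3.98%, 1.99% and 3.24% passed. An analysis of variance with Tukey's HSD, the tests used in the methods, was run on the same values with CI-994 included, and 0 of the 54 passed. The methods' own test had no CI-994 group, so this result is not a repeat of it. Whether the arrays of groups overlapped is given only as a description, here and between regions. The share of all probes without such overlap was not counted.

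Impact was lower with Cpd-60 in PFC, at 10.99, 11.15 and 11.14 against 11.38, 11.28 and 11.31 with vehicle. The groups did not overlap, and the difference was −0.23 ± 0.09 (limma adjusted p = 0.923), which passed an unadjusted p of 0.05. SAHA and CI-994 gave Impact differences of −0.18 ± 0.09 and −0.14 ± 0.09 in PFC, each with 1 array inside the vehicle range. By its second probe the Cpd-60 difference was −0.11 and did not pass it.

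Nnat was higher with Cpd-60 in NAc, at 9.01, 9.20 and 9.46 against 8.77, 8.61 and 8.78, and the groups did not overlap. The difference was 0.50 ± 0.18 (limma adjusted p = 0.999), again past the unadjusted threshold. The corresponding differences of Nnat were 0.18 ± 0.12 in PFC and 0.23 ± 0.21 in HIP with Cpd-60, and 0.24 ± 0.18 with SAHA and 0.01 ± 0.18 with CI-994 in NAc. By its other 2 tested probes the Cpd-60 difference in NAc was 0.20 ± 0.18 and −0.01 ± 0.19, and neither passed that threshold. Without the second vehicle pool the Nnat difference was 0.45, and without the third Cpd-60 pool 0.39, and neither passed that threshold.

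Ndn was higher with SAHA in HIP, at 11.67, 11.77 and 11.92 against 11.50, 11.35 and 11.29 with vehicle. The groups did not overlap, and the difference was 0.41 ± 0.13 (limma adjusted p = 0.502), past the unadjusted threshold. SAHA arrays 2 and 3 of HIP were among the dimmest of the 36, with 32.1% and 32.3% of probes detected, and without both the difference was 0.29 and no longer passed the unadjusted threshold. That fit has 1 SAHA array left, which is assumed to vary like the other groups. Leaving out 1 SAHA array at a time gave Ndn differences between 0.34 and 0.47, each past the unadjusted threshold. Peg3 with SAHA in HIP also lay above vehicle on all arrays, by 0.19 ± 0.12 (limma adjusted p = 0.587), and did not pass it. Ndn differed by 0.13 ± 0.13 with Cpd-60 and by 0.06 ± 0.13 with CI-994 in HIP.

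Nap1l5 was at 7.99, 8.44 and 8.45 with SAHA in PFC against 7.96, 7.86 and 8.05 with vehicle, which overlapped, and the difference of 0.34 ± 0.15 passed the unadjusted threshold. Of the 3 arrays of a group, SAHA and CI-994 had 2 on the second BeadChip and vehicle and Cpd-60 had 1, so this comparison was unbalanced. With BeadChip as a block the SAHA difference in PFC was 0.23 ± 0.08 and still passed it, and that in NAc, which passed it in neither fit, went from 0.98 ± 0.86 to 0.32 ± 0.26. With Cpd-60 in HIP, Nap1l5 was at 10.07, 9.97 and 9.05 against 9.54, 9.27 and 8.96, a difference of 0.44 ± 0.28 that missed the unadjusted threshold and passed it with BeadChip as a block, at 0.44 ± 0.12 (limma adjusted p = 0.636).

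**Figure D4:**
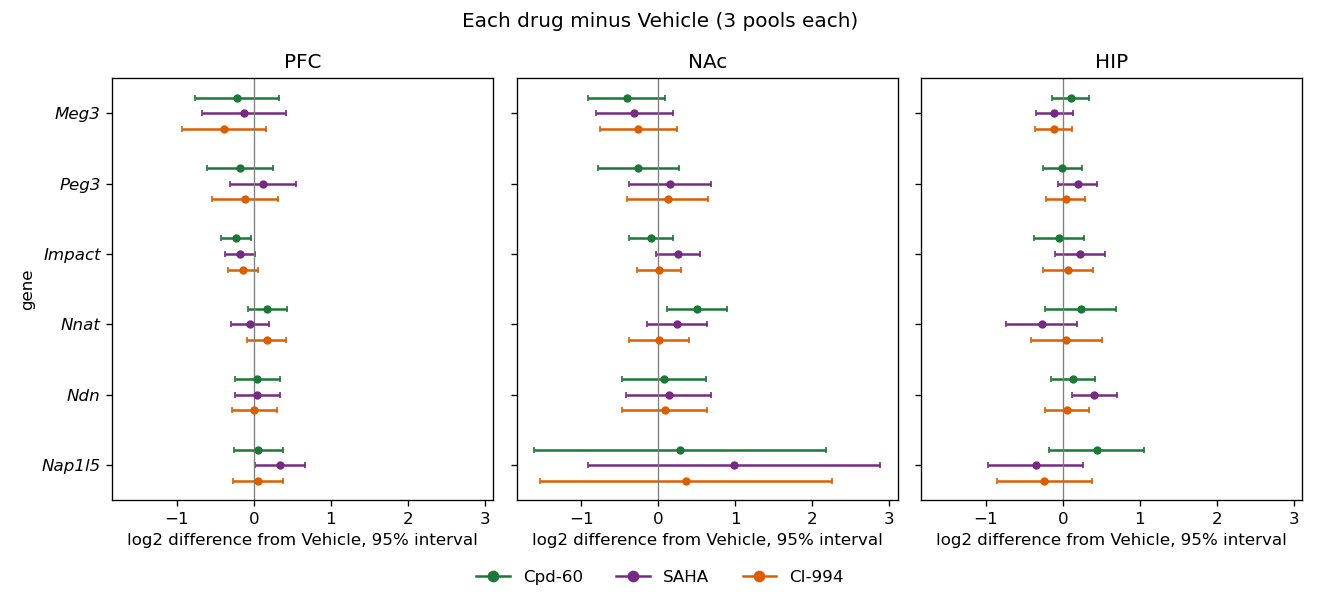
Log2 difference of each drug from vehicle (x axis, bars 95% interval, 3 pools each) for each gene (y axis) in PFC, NAc and HIP. Most intervals cover 0, and those of Nap1l5 in NAc are the widest, from −1.61 to 2.18 for Cpd-60.

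Meg3 and Peg3 showed no call with any drug. The differences of Meg3 from vehicle were −0.22 ± 0.25, −0.13 ± 0.25 and −0.39 ± 0.25 in PFC with Cpd-60, SAHA and CI-994, and −0.41 ± 0.23, −0.31 ± 0.23 and −0.26 ± 0.23 in NAc. In HIP they were 0.10 ± 0.11, −0.11 ± 0.11 and −0.12 ± 0.11. The vehicle level of Meg3 in NAc was thus the highest of the 4 treatments, with overlap for each drug, and the 95% interval with Cpd-60 ran from −0.91 to 0.09. With BeadChip as a block that Meg3 difference passed the unadjusted threshold (limma adjusted p = 0.602). Those of Peg3 lay between −0.26 with Cpd-60 in NAc and 0.19 with SAHA in HIP. Over the 6 genes, treatment within region accounted for 3.9% to 11.4% of the variance over the 36 arrays, against a median of 17.0% over all probes tested. These are shares of all variance, of which region took 41.9% to 82.6% for these genes, against a median of 26.2% with dim probes included. The lower treatment share is therefore no measure of a smaller drug difference.

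Some differences between regions kept their sign under each treatment and others did not. Meg3 in HIP differed from NAc by −1.57 ± 0.40 (SD, 3 pools) with vehicle, −1.06 ± 0.48 with Cpd-60, −1.37 ± 0.12 with SAHA and −1.43 ± 0.40 with CI-994. Peg3 gave −0.75 ± 0.39 with Cpd-60, −0.97 ± 0.30 with SAHA and −1.09 ± 0.15 with CI-994, beside its fall of 1.00 with vehicle. Nnat in NAc differed from PFC by 0.86 ± 0.17 with vehicle, 1.18 ± 0.44 with Cpd-60, 1.14 ± 0.50 with SAHA and 0.70 ± 0.24 with CI-994. By contrast, HIP minus NAc of Nap1l5 was 0.34 with vehicle and 0.49 with Cpd-60, but −0.26 with CI-994 and also below 0 with SAHA, where more of the pools sat on the second BeadChip. That of Nnat was 0.03 with vehicle and −0.48 with SAHA, and NAc minus PFC of Impact was −0.20 with vehicle and 0.23 with SAHA. Whether a drug acted differently in HIP than in PFC and NAc was tested in 1 fit of all 36 arrays with the pool as a random block. Over 26594 probes, 2.29% passed an unadjusted p of 0.05 for Cpd-60, 7.36% for SAHA and 2.3% for CI-994, and 0 of 6 genes did for any drug. The smallest adjusted p was that of Nnat with SAHA, at −0.37 ± 0.23 (limma adjusted p = 0.726).

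Beyond these genes, 63 further imprinted genes were listed, of which 58 had a probe and 40 were tested between regions. From PFC to NAc 8 of the 40 were higher and 5 lower past an adjusted p of 0.05, beside 19.3% of all probes in either direction. From PFC to HIP 7 were higher and 5 lower (24.3% of all probes), and from NAc to HIP 4 were higher and 8 lower (16.2%). Their median log2 differences were 0.07, −0.03 and −0.08, beside −0.00, −0.03 and −0.00 for all probes.

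Neighbours of the members in imprinted clusters are set beside them. Dlk1, a paternally expressed relative of Notch ligands in the Meg3 cluster, was at 8.08 to 9.04 in NAc, 6.68 to 6.78 in PFC and 6.84 to 7.30 in HIP. In PFC it was near background, detected at a p of 0.01 on 1 of 3 vehicle arrays, where the dimmest detected probes lay at 6.74 to 6.75, so its difference from PFC is approximate. It was higher in NAc than in PFC by 1.78 ± 0.15 (adjusted p = 0.000158) and fell by 1.46 ± 0.15 from NAc to HIP (adjusted p = 0.000459). Rtl1 of the same cluster, a retrotransposon-derived gene, fell by 0.54 ± 0.08 from NAc to HIP (adjusted p = 0.00279) and by 0.37 ± 0.08 from PFC to HIP (adjusted p = 0.0121), with 2 of 3 HIP arrays detected at 0.01. Usp29, a deubiquitinase next to Peg3, was higher in NAc than in PFC by 1.00 ± 0.19 (adjusted p = 0.00887) and fell by 1.34 ± 0.19 from NAc to HIP (adjusted p = 0.00258), the same signs as Peg3. Blcap, whose intron holds Nnat, fell by 0.50 ± 0.12 from NAc to HIP (adjusted p = 0.0304). There the brightest Nnat probe differed by 0.03, and dimmer ones by 0.17 and −0.29. Herc3, whose intron holds Nap1l5, differed by −0.03 ± 0.08 between NAc and PFC (adjusted p = 0.837). It was near background, at 6.67 to 7.00 in NAc and 6.73 to 6.89 in PFC. In each it was detected at 0.01 on 2 of 3 arrays, so its probe could hardly show a difference. Rtl1, Blcap and Herc3 were named as neighbours after their values had been seen.

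Elsewhere in the genome, Inpp5f, a phosphoinositide phosphatase, was higher than in PFC by 1.83 ± 0.14 in NAc and by 1.2 ± 0.14 in HIP (adjusted p = 0.000116 and 0.00117). Cdkn1c, an inhibitor of the cell cycle, fell by 1.13 ± 0.12 from PFC to NAc and by 0.79 ± 0.12 from PFC to HIP (adjusted p = 0.000442 and 0.00286). Dcn (decorin), a proteoglycan of the extracellular matrix, fell by 0.94 ± 0.21 from PFC to NAc (adjusted p = 0.0168) and was higher in HIP than in NAc by 1.99 ± 0.21 (adjusted p = 0.000528). Grb10, an adaptor of insulin signalling, fell by 1.30 ± 0.13 from NAc to HIP (adjusted p = 0.000402) and Igf2, a growth factor, by 0.80 ± 0.13 from PFC to NAc (adjusted p = 0.00425). Gnas, the stimulatory G protein subunit, was higher in HIP than in NAc by 0.83 ± 0.12 (adjusted p = 0.00267), and Peg13 fell by 0.68 ± 0.09 from PFC to HIP (adjusted p = 0.00184). Cd81, a tetraspanin, was higher in HIP than in PFC by 0.79 ± 0.11 (adjusted p = 0.00229).

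**Figure D5:**
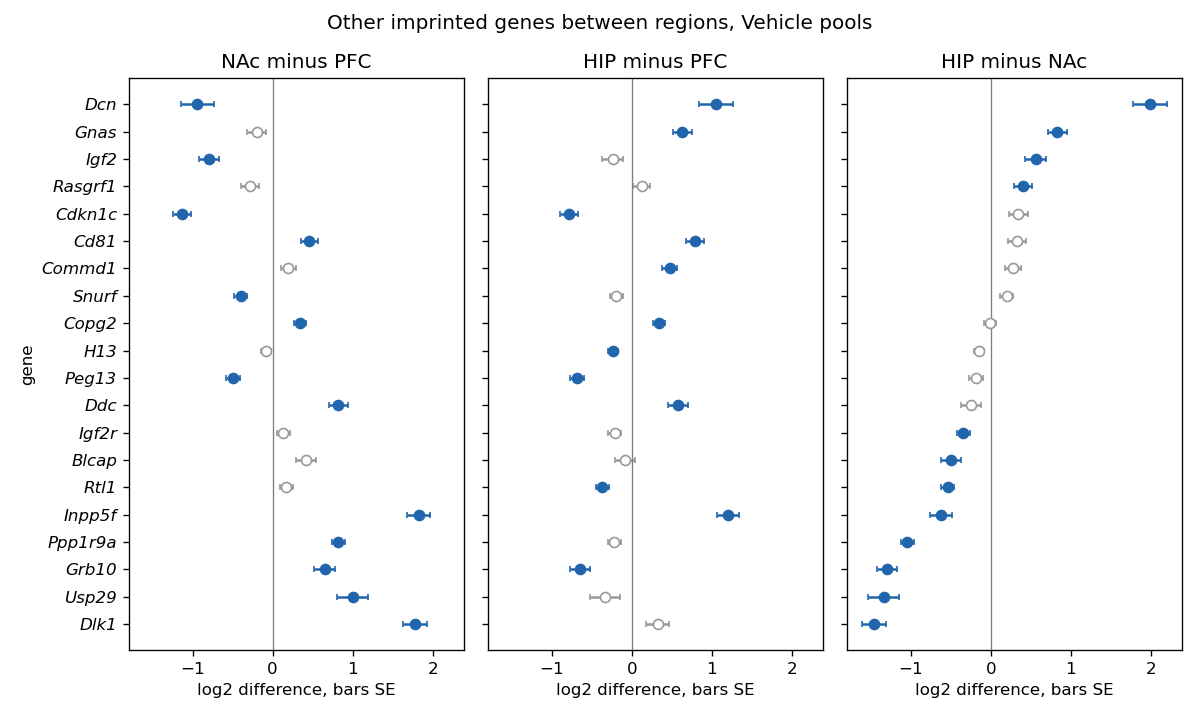
Log2 difference between regions in the vehicle pools (x axis, bars SE) for the 20 further imprinted genes (y axis, ordered by HIP minus NAc) that passed an adjusted p of 0.05 in at least 1 contrast, filled blue where it passed. Dlk1, Usp29 and Grb10 lie lowest and Dcn highest for HIP minus NAc.

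With the drugs, 0 of these further imprinted genes passed an adjusted p of 0.05 by limma. At an unadjusted p of 0.05, between 0 and 4 of the 41 to 46 tested passed per comparison, where 1.99% to 9.37% of all probes did. Past 1.2-fold as well, Cdkn1c was higher in PFC by 0.35 ± 0.13 with Cpd-60 and by 0.30 ± 0.13 with CI-994 (limma adjusted p = 0.923 with Cpd-60). Rasgrf1, an exchange factor of Ras, was higher by 0.34 ± 0.10 in NAc with Cpd-60 (adjusted p = 0.942), Cd81 by 0.32 ± 0.13 in HIP with SAHA (adjusted p = 0.515) and Commd1, a copper-handling protein, by 0.27 ± 0.06 in PFC with CI-994 (adjusted p = 0.902). The 2 Cdkn1c values share their vehicle arrays. Of 12 genes that lay down or keep imprints, such as DNA methyltransferases and their partners, 8 were tested between regions, and 2 of the 8 passed between HIP and PFC, against 24.3% of all probes. Trim28, a corepressor that holds imprinted methylation in place, was lower in HIP than in PFC, with a log2 difference of −0.30 ± 0.08 (adjusted p = 0.0286), though the arrays overlapped, and Zfp445, a zinc finger protein that recruits it, was higher by 0.72 ± 0.21 (adjusted p = 0.0413), with 2 of 3 PFC arrays detected at 0.01. None of these genes passed an unadjusted p of 0.05 with any drug by limma.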

How the data were processed

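The authors extracted total RNA with Trizol and RNeasy columns, hybridized biotinylated cRNA to Illumina MouseWG-6 arrays and deposited raw probe intensities, not normalized, and a p-value of detection beside every intensity. The genome build of the array annotation is not given in the sources used here. The deposited intensities were quantile-normalized over 36 arrays, then floored at 1 and log2 transformed. The study's methods name 27 arrays and its design text 36, and the 27 were an alternative. Probes were tested with a deposited detection p-value of at most 0.2 on 3 of 3 arrays of at least 1 group, which is how the methods' present filter was read. Tests used limma 3.58.1 in R 4.3.3 with Benjamini-Hochberg adjustment over all tested probes, and the scripts were tested on simulated data. Regions were compared within vehicle pools with the pool as a block, drugs with vehicle within a region, and the regional difference of a drug effect over 36 arrays with the pool as a random block. The 3 regions of a pool come from the same mice, which is where that pairing comes from.

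Each gene was given by its tested probe with the highest mean signal, with its other probes beside it. Further imprinted genes were named up to 3 in each direction per comparison by size among those called, and under the drugs past 1.2-fold at an unadjusted p of 0.05. The members and lists were chosen with earlier results of these data known. Alternatives were neqc in place of quantile normalization (with an offset of 16), a stricter detection filter (0.01), BeadChip, replicate or no block, second probes, Tukey's HSD, all 36 arrays, and leaving out each pool. Leaving out both dim SAHA HIP arrays, the BeadChip contrast and the 9 drug pools alone were added after the data had been seen.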

Additional observations from a re-analysis of the deposited data

How the results depend on the processing

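The fall of Peg3 from NAc to HIP passed under each of its 10 alternatives, and it was the only one of 8 called region differences to do so. Of the 8, 1 changed sign in an alternative: by the second Meg3 probe the difference between HIP and PFC was 0.31 (adjusted p = 0.313), and the cause was not tested. Opposite signs also arose for 4 of 10 region differences that had not passed, among them Nap1l5 between HIP and NAc (0.34, between −0.11 and 1.12), for 32 of 50 such drug differences and for 13 of 18 regional differences of a drug effect, but for 0 of the 4 drug differences past an unadjusted p of 0.05. Counts of genes called between NAc and PFC, 2 of 6, became 4 with all 36 arrays and lay between 0 and 5 when a vehicle pool was left out. Between HIP and PFC, 3 of 6 became 6 with all 36 arrays, 6 with no replicate block, and between 1 and 6 without a vehicle pool. Leaving out pool 2 gave the low counts and pool 3 the high ones. The share of all probes called was not counted under these alternatives, nor under those for the drugs below. The counts thus do not show whether these genes depend more on the processing than other probes.

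At an unadjusted p of 0.05, the 2 Cpd-60 values of 18 became 1 with neqc normalization, 4 with BeadChip as a block, 0 by Tukey's HSD, 0 by second probes, and between 1 and 3 when a pool was left out. The 2 SAHA values became 1 with neqc, 0 by Tukey's HSD, 1 by second probes and between 1 and 3 without a pool. The replicate block, with pool number as a block, gave 3 for Cpd-60, 5 for SAHA and 0 for CI-994. Same-numbered pools of different treatments are different mice. With Cpd-60 and vehicle their deviations correlated between 0.16 and 0.55 in PFC and between 0.33 and 0.71 in NAc, over 0.1 in every pair, and Impact in PFC and Nnat in NAc passed with the block too. In the other 7 comparisons at least 1 of 3 pairs was under 0.1, and over all 27 pairs 15 exceeded it. The count of 0 for CI-994 became 1 by second probes and between 0 and 1 without a pool. For the regional difference of the SAHA effect, 0 became 1 with BeadChip as a block. No alternative gave an adjusted call for a drug. With 3 pools a group, array number limits the precision, and dim probes near background have compressed differences.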
